A study of Mus musculus with 16 samples.

Results

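Signals from cytokine receptors that pass through JAK kinases and STAT transcription factors were followed here by 10 genes: the kinase gene Jak2, the transcription factor genes Stat3, Stat5a and Stat5b, the feedback inhibitor genes Socs1, Socs2, Socs3 and Cish, the kinase gene Pim1 and the nuclear IκB family gene Bcl3. They were chosen by symbol, with earlier results of these data known. They are 10 of the 27998 genes in the count matrices of 8 single-cell RNA libraries of mouse bone marrow. The question was how IL1β moved them in each gated cell type of wild-type (WT) and Tet2-KO mice. With IL1β, Cish was 4.9-fold higher in WT and 4.16-fold higher in Tet2-KO cells of the late erythroid progenitor gate, Pim1 was 2.23-fold to 3.13-fold higher in 4 WT cell types and 3.19-fold and 3.48-fold higher in 2 Tet2-KO cell types, and Jak2, Stat3 and Stat5b were 1.32-fold to 1.54-fold higher in granulocyte progenitors of both genotypes. Cish passed the filter on low counts in this erythroid gate through mice with IL1β, so the filter favored a rise. Each Cish and Pim1 call in the 9 main cell types was lost without at least 1 of the libraries: without the library of KO IL1β mice 3 and 4 the log2 fold change of Cish in Tet2-KO mice went from 2.06 to 0.63, and the Pim1 call in WT granulocyte progenitors was lost in 17 of 24 fits that left out 1 mouse or 1 library. In granulocyte progenitors the calls of Jak2 in WT mice and of Stat5b in both genotypes were also lost without at least 1 library. Those of Stat3 in both genotypes and of Jak2 in Tet2-KO mice were kept in all 24 fits. Of all genes tested in these cells, 28.3% were called in WT and 38.8% in Tet2-KO mice. No member was called lower in either genotype, and no difference between the genotypes passed the test.

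JAK kinases sit on the inner side of cytokine receptors, and ligand binding lets them phosphorylate the receptor tails and then the STAT proteins, which enter the nucleus and switch on target genes. Among these targets are the SOCS proteins and CIS, the product of Cish, which bind the receptor complex and damp the signal, so that their mRNA is often read as a trace of recent signaling. In the marrow, erythropoietin acts through JAK2 and STAT5, whereas G-CSF and IL-6 act largely through STAT3. IL1β itself signals through NF-κB and the MAP kinases rather than through a JAK, and can raise the output of cytokines that use one.

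Mice of the C57BL/6 strain carried floxed Tet2 (Tet2fl/fl, the WT mice) or lacked Tet2 in blood cells through Vav-Cre (Vav-Cre-Tet2-/-, the Tet2-KO mice), and each received 500 ng of IL1β per day or vehicle intraperitoneally for 5 weeks. The labels give an age of 6 to 12 weeks. WT mice carry no Cre, so effects of Tet2 loss and of the transgene cannot be told apart, and 3′ counts of Tet2 were not taken as a check of the deletion. Each of the 4 groups had 4 mice, and each library pooled 2 mice of 1 group, marked by hashtag antibodies, after depletion of lineage-positive cells. Mice are numbered by library and hashtag, and a number is a name with no order.

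The 8 libraries held 56010493 to 99197115 UMIs in 121405 barcodes, of which 94917 passed the filters on genes and mitochondrial UMIs and 57896 were assigned to 1 mouse. Between 11 and 57 barcodes were shared by any pair of libraries. Of the assigned cells, 42306 (73.1%) fell into exactly 1 of 17 marker gates that use no member gene. Of these gates, 9 had at least 20 cells in at least 3 mice of every group and were tested, and 5 more were added at 10 cells. The gates are called by the cells their markers define, with "-like" added. GranP-like cells are granulocyte progenitors, MonoP-like cells monocyte-primed progenitors, MegP-like cells megakaryocyte progenitors, CFU-E-like cells late erythroid progenitors and EryB-like cells erythroblasts. HSC-like cells are hematopoietic stem cells, MPP-like cells multipotent progenitors, CLP-like cells lymphoid progenitors, MEP-like cells megakaryocyte-erythroid progenitors, and DC-like and pDC-like cells dendritic and plasmacytoid dendritic cells. In cells gated on Mpo and Cd34 without Ms4a3, the markers kept for checking (Nkg7, Plac8, Calr and Clec12a) ranked 9, 5, 5 and 9 among the 17 gates, so these cells are called Mpo+Cd34+ cells and carry no cell type name. In MPP-like cells the check markers Cd48 and Notch1 ranked 8 and 6 among the 17 gates, a weak mark. In GranP-like cells of every group, mice 1 and 2 lay above mice 3 and 4 in the summed level of 10 handling-stress genes (Fos, Jun, Egr1 and the like), which over all groups was 695 to 2247 CPM in the former and 356 to 798 CPM in the latter. The same held in every group in Mpo+Cd34+, MonoP-like, Mono-like, Neut-like and Baso-like cells. The library of KO vehicle mice 1 and 2 also stood apart in Pim1, whose values are therefore given by library. EryB-like cells had 3 mice in each Tet2-KO group and Neut-like cells 3 in the KO vehicle group.

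UMIs were summed per mouse and cell type and given as UMIs scaled to the depth of that cell type and mouse (CPM) with TMM factors. In such sums, fewer cells that express a gene and less of its mRNA per cell cannot be told apart. UMIs of the members in gated cells ranged from 334 for Socs2 and 607 for Socs3 to 14709 for Stat3 and 30563 for Pim1, with 694 for Socs1, 1008 for Cish, 1744 for Bcl3, 10288 for Jak2, 12756 for Stat5a and 12512 for Stat5b. Because of these counts, 51 of 90 pairs of member and cell type passed the filter on low counts. Pim1, Jak2, Stat3 and Stat5b passed in all 9 types, Stat5a in 8, Bcl3 in 3, Cish in 2, Socs1 and Socs3 in 1 each, and Socs2 in 0. For the inhibitor genes, most of this marrow was therefore not tested rather than found unchanged.

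Levels were ordered over the 15 gates with at least 10 cells in at least 3 WT mice with vehicle, which leaves out eosinophil-like and NK/T-like cells. In WT mice with vehicle, Pim1 stood highest among these in HSC-like cells at 237 ± 33.1 CPM (SD, n = 3 mice), followed by MPP-like, CLP-like and DC-like cells at 225 to 232 CPM, and lowest in CFU-E-like cells at 32.9 ± 3.81 CPM (n = 4). Jak2 had its highest level in basophil-like (Baso-like) cells at 132 ± 19.8 CPM (n = 4) and its lowest in GranP-like cells at 14.2 ± 4.63 CPM. Among the same 15 gates Stat3 was highest in MEP-like cells at 132 ± 51.7 CPM (n = 3) and lowest in the erythroid gates, with 15.3 ± 3.04 CPM in CFU-E-like and 12.6 ± 5.41 CPM in EryB-like cells (n = 4). For Stat3 the mice of these erythroid gates overlapped, and the lowest level of Pim1, in CFU-E-like cells, overlapped those of Neut-like and GranP-like cells.

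Stat5a reached 192 ± 23.5 CPM in MEP-like cells (n = 3), above the 85.2 ± 14.6 CPM of MegP-like cells (n = 4) with no overlap between the mice. For Stat5b the order also began with MEP-like cells, at 167 ± 115 CPM (n = 3), but there 1 mouse carried the mean and the range overlapped that of pDC-like cells. Cish was highest of the 15 gates in CLP-like cells at 23.5 ± 20.8 CPM (n = 4) and HSC-like cells at 16.7 ± 2.84 CPM (n = 3), which overlapped. Across the 15 types in this order, nearly all neighbours overlapped for every member. The exceptions were Jak2 between MEP-like and monocyte-like (Mono-like) cells, Stat5a between MEP-like and MegP-like cells, and Stat5b between CFU-E-like and MonoP-like cells.

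NK/T-like cells, with 316 cells in all, held higher mean values of several members than any of these gates, on few UMIs. In WT vehicle mice 3 and 4, the 2 with at least 10 such cells, Pim1 was at 485 and 559.8 CPM, Stat3 at 291 and 35.0 CPM, and Cish and Socs2 each at 72.7 and 35.0 CPM, the last 2 genes on 3 and 1 UMIs. In the 4 KO IL1β mice Socs2 was at 317, 150.2, 190.6 and 131 CPM on 5 to 20 UMIs and Cish at 223.5, 113, 31.8 and 105 CPM on 1 to 15. WT IL1β mice 3 and 4 had 57.9 and 43.4 CPM of Socs2 and 29.0 and 0 CPM of Cish, no higher than the WT vehicle range. KO vehicle mice 1 and 3 had 0 UMIs of either gene, which at 3 UMIs allows up to 80.5 and 177 CPM, a bound that covers counting error only. With 2 vehicle mice per genotype this gate was not tested.

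**Figure D1:**
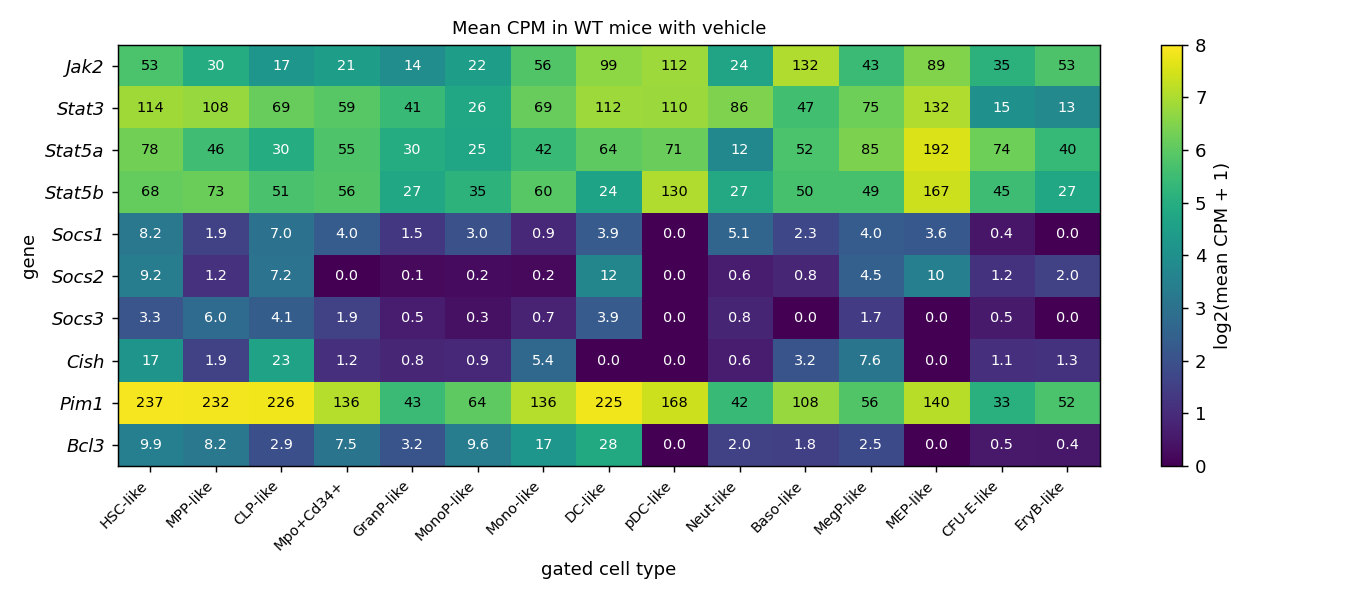
Mean CPM of each member (rows) in the 15 gated cell types with at least 3 WT mice with vehicle (columns), in those mice, with the color giving log2(mean CPM + 1) and the number in each box the mean CPM over 3 or 4 mice. Pim1 is high in HSC-like, MPP-like, CLP-like and DC-like cells and low in CFU-E-like cells, and the 4 SOCS family genes and Bcl3 lie at the low end in most types.

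Over the 9 tested types, the quasi-likelihood test of edgeR, with p-values adjusted by Benjamini-Hochberg over all genes of a type, called 10 of 51 member tests with IL1β in WT mice, all of them higher, beside 13.2% of all gene tests called in either direction and 5.34% called higher. In Tet2-KO mice 12 of 51 were called, all higher, beside 15.9% in either direction and 6.97% higher. The counts of higher calls lay above the background of higher calls, whereas the counts in either direction lay nearer to theirs. The members were chosen with earlier results of these data known, so a count above the background is no independent support for a response of these genes. Fold changes were above 0 on the log2 scale in 43 of 51 tests in WT mice, with a median of 0.26, where 53.4% of all gene tests were above 0 with a median of 0.03. In Tet2-KO mice 44 of 51 were above 0, with a median of 0.35 beside 0.03 and 52.9% for all genes. Cish, and largely Socs3, passed the filter on low counts through mice with IL1β, so the filter favored rises of these genes in the tallies. The 51 tests repeat the same members and mice over the 9 types and are not independent. Of the pairs of member and type, 5 were called in both genotypes, 5 in WT mice alone and 7 in Tet2-KO mice alone, a split that is no test of a difference between genotypes. The comparisons in WT and in Tet2-KO mice share no mice.

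Granulocyte progenitors held the largest number of calls in WT mice. In GranP-like cells 4 of 7 tested members were called in WT mice, where 28.3% of all genes were called, and 3 of 7 in Tet2-KO mice, where 38.8% were. MonoP-like cells had 2 of 6 (background 20.2%) in WT and 1 of 6 (26.6%) in Tet2-KO mice. Mpo+Cd34+ cells had 1 of 6 (9.59%) in WT and 3 of 6 (17.1%) in Tet2-KO mice. Only small numbers of members stand behind each of these shares, and in GranP-like and MonoP-like Tet2-KO cells the members' share did not stand clear of the background.

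CFU-E-like cells had 2 of 6 members called in each genotype, beside 17.6% of genes in WT and 14.9% in Tet2-KO mice. EryB-like cells had 1 of 6 in WT (10.1%) and 0 of 6 in Tet2-KO mice (6.64%), and MegP-like cells 0 of 5 in WT (5.64%) and 2 of 5 in Tet2-KO mice (10.3%). Among mature cells, Baso-like cells had 0 of 5 in WT (6.26%) and 1 of 5 in Tet2-KO mice (7.19%). Mono-like cells had 0 of 6 in both genotypes (5.6% and 4.85%), and neutrophil-like (Neut-like) cells had 0 of 4 in both (3.4% and 2.92%). At an unadjusted p under 0.05, edgeR gave 1 of 6 in Mono-like (all genes 21.3%) and 1 of 4 in Neut-like WT cells (16.5%), and 0 in the same Tet2-KO cells (20.8% and 17.9%). Of the 9 types, Mono-like and Neut-like cells also had the lowest shares of all genes called in both genotypes.

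In the 5 smaller gates, tested at 10 cells after the data were seen, edgeR called Pim1 alone. CLP-like cells had 1 of 3 members called in WT (4.63%) and 0 of 3 in Tet2-KO mice (1.79%), and MEP-like cells 1 of 4 (2.06%) and 0 of 4 (1.2%). HSC-like cells had 0 of 5 in both genotypes, where 0.0815% of genes in WT and 0.163% in Tet2-KO mice were called. MPP-like cells had 0 of 6 (3.58% and 7.8%) and DC-like cells 0 of 3 (2.05% and 2.22%), although 3 of 6 members of MPP-like cells had an unadjusted p under 0.05 in each genotype, where 16.6% of all genes in WT and 23.7% in Tet2-KO mice did.

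**Figure D2:**
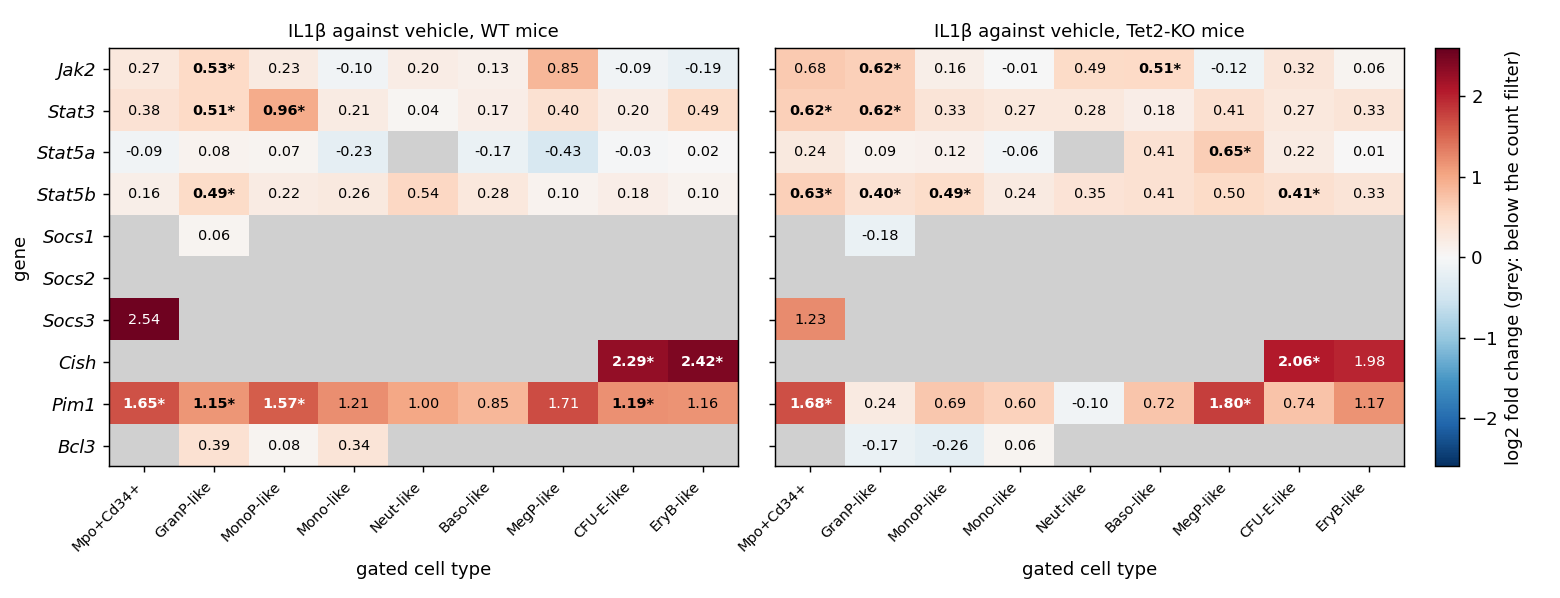
Log2 fold change of each member (rows) with IL1β against vehicle in the 9 tested cell types (columns), in WT (left) and Tet2-KO mice (right). Stars and bold numbers mark adjusted p under 0.05 by edgeR, and grey boxes did not pass the filter on low counts. All 10 starred boxes of WT mice and all 12 of Tet2-KO mice are above 0.

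Jak2, the kinase bound to the receptors for erythropoietin, thrombopoietin, GM-CSF and IL-3, rose in granulocyte progenitors of both genotypes. Its levels in GranP-like cells of WT mice 1 to 4 were 17.2, 7.33, 15.7 and 16.6 CPM with vehicle and 20.3, 21.4, 21.3 and 29.8 CPM with IL1β. In Tet2-KO mice 1 to 4 they were 17.0, 15.8, 16.0 and 12.9 CPM with vehicle and 25.5, 24.9, 23.6 and 22.4 CPM with IL1β. All mice with IL1β lay above all mice with vehicle in both genotypes, with 1 low WT vehicle mouse and 1 high WT IL1β mouse. The log2 fold change was 0.53 in WT (SE 0.15, adjusted p = 0.011 by edgeR) and 0.62 in Tet2-KO mice (SE 0.13, adjusted p = 0.0006). The Tet2-KO call was kept in all 24 fits that left out 1 mouse or 1 library. The WT call was kept in 22, and was lost without the library of WT IL1β mice 3 and 4 (0.42) and without that of WT vehicle mice 3 and 4 (0.63). It was also lost with each library of 2 mice summed to 1 replicate (pools as replicates), the 1 of 14 other settings that did not call it, whereas the Tet2-KO call was kept in all 14.

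In Baso-like cells of Tet2-KO mice, Jak2 was at 137, 78.8, 105 and 100 CPM with vehicle and 161, 164, 147 and 155 CPM with IL1β, with no overlap. The log2 fold change was 0.51 (SE 0.15, adjusted p = 0.028 by edgeR), and 8 of the 24 left-out fits no longer called it: without KO IL1β mouse 2 (0.47) or 4 (0.51), KO vehicle mouse 2 (0.45), 3 (0.46) or 4 (0.43), and the libraries of KO IL1β mice 1 and 2 (0.45), KO IL1β mice 3 and 4 (0.57) and KO vehicle mice 3 and 4 (0.35). It was called in 9 of 14 other settings, and not by DESeq2 or with pools as replicates. WT basophils had 133, 143, 104 and 148 CPM with vehicle and 154, 138, 153 and 116 CPM with IL1β, which overlapped (log2 fold change 0.13). Basophils were also the type with the highest Jak2 level in WT mice with vehicle. In CFU-E-like cells, Tet2-KO mice had 30.6, 26.8, 30.4 and 33.5 CPM with vehicle and 63.9, 34.7, 37.1 and 38.8 CPM with IL1β, without overlap, and the log2 fold change of 0.32 (SE 0.13, adjusted p = 0.094) was not called. In MegP-like cells, Jak2 in WT mice was at 47.8, 50.6, 36.5 and 35.5 CPM with vehicle and 58.9, 91.7, 95.6 and 66.4 CPM with IL1β, a log2 fold change of 0.85 (SE 0.32, adjusted p = 0.12 by edgeR) that was not called. Tet2-KO mice had 94.9, 132, 53.2 and 43.9 CPM with vehicle and 57.2, 75.3, 97.1 and 59.8 CPM with IL1β, which overlapped. There the log2 ratio of the IL1β to the vehicle library was -0.78 for mice 1 and 2 and 0.69 for mice 3 and 4.

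Stat3, which carries signals from G-CSF and IL-6 in myeloid cells, rose in granulocyte progenitors of both genotypes and in monocyte-primed progenitors of WT mice. GranP-like cells had 47.6, 31.8, 41.2 and 42.4 CPM in WT mice with vehicle and 61.2, 57.9, 62.8 and 57.5 CPM with IL1β. Tet2-KO mice had 51.0, 42.1, 37.1 and 36.8 CPM with vehicle and 67.5, 61.1, 68.8 and 61.2 CPM with IL1β. The groups did not overlap in either genotype, and the 8 mice with IL1β lay within a narrow band. Log2 fold changes were 0.51 (SE 0.11, adjusted p = 0.0014 by edgeR) in WT and 0.62 (SE 0.10, adjusted p = 4.7e-05) in Tet2-KO mice. Both calls were kept in all 14 other settings and all 24 fits with a mouse or library left out.

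MonoP-like cells of WT mice had 28.6, 17.8, 35.7 and 22.1 CPM of Stat3 with vehicle and 54.9, 59.8, 50.1 and 59.4 CPM with IL1β. No mouse with IL1β overlapped a mouse with vehicle, and the level was 1.95-fold higher (log2 0.96, SE 0.15, adjusted p = 2.4e-05 by edgeR), again in all 14 settings and all 24 left-out fits. In Tet2-KO mice the same cells had 47.7, 43.1, 33.9 and 37.6 CPM with vehicle and 54.2, 53.0, 49.3 and 46.9 CPM with IL1β, where 1 IL1β mouse fell below 1 vehicle mouse. This difference, 0.33 (SE 0.13), was not called (adjusted p = 0.064). The means of vehicle mice lay apart as well, at 26.0 ± 7.83 CPM of Stat3 in WT and 40.6 ± 6.07 CPM in Tet2-KO mice (SD, n = 4). These vehicle groups overlapped, and the log2 difference of 0.52 was not called (adjusted p = 0.33 by edgeR). The interaction of genotype and IL1β for Stat3 in these cells was -0.64 (SE 0.20), with an adjusted p of 0.9995.

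Mpo+Cd34+ cells of Tet2-KO mice showed a further rise of Stat3, from 73.1, 42.6, 66.9 and 65.5 CPM to 93.7, 102, 122 and 91.4 CPM, without overlap (log2 0.62, SE 0.19, adjusted p = 0.018 by edgeR). It was not called by DESeq2, and was lost in 7 of 24 left-out fits, without KO IL1β mouse 2 (0.62) or 3 (0.54), KO vehicle mouse 4 (0.62) or any of the 4 Tet2-KO libraries (0.57 to 0.65). WT mice had 68.5, 29.8, 54.6 and 84.2 CPM with vehicle and 103, 81.1, 79.1 and 70.4 CPM with IL1β, which overlapped (0.38, not called). In the other 6 tested types, Stat3 was not called in either genotype.

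Stat5b, Stat5a and Stat3 lie side by side on mouse chromosome 11 (GRCm38), at chr11:100780731-100850724 on the minus strand, chr11:100859351-100885169 on the plus strand and chr11:100885098-100939540 on the minus strand. The 3′ ends of Stat5a and Stat3 overlap on opposite strands, so 3′ reads in that stretch are told apart by strand only, and the strand setting of the counting is not given in the sources used here. Stat5a and Stat5b, whose products carry signals from erythropoietin, thrombopoietin and IL-3, are described in turn. Stat5b rose in GranP-like cells, from 26.8, 34.2, 23.6 and 21.8 CPM to 33.3, 36.1, 36.2 and 35.9 CPM in WT mice. In Tet2-KO mice it rose from 25.2, 30.4, 23.2 and 27.7 CPM to 37.5, 38.2, 31.4 and 33.2 CPM. The Tet2-KO groups did not overlap, whereas WT vehicle mouse 2 exceeded 1 WT mouse with IL1β. The log2 fold changes were 0.49 (SE 0.12, adjusted p = 0.0043 by edgeR) and 0.40 (SE 0.11, adjusted p = 0.0048). The WT call was lost without the library of WT vehicle mice 3 and 4 (0.28) and with pools as replicates. The Tet2-KO call was lost without the library of KO IL1β mice 1 and 2 (0.29) and without that of KO vehicle mice 3 and 4 (0.34).

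Stat5a in the same GranP-like cells was 29.9 ± 2.90 CPM with vehicle and 31.2 ± 1.35 CPM with IL1β in WT mice (SD, n = 4), and 29.7 ± 3.202 and 31.4 ± 2.57 CPM in Tet2-KO mice. Its log2 difference was 0.08 in WT (95% interval -0.13 to 0.30) and 0.09 in Tet2-KO mice (-0.11 to 0.28), so a rise of the size seen for Stat5b lay outside both intervals. The difference between the Stat5a and Stat5b responses was not itself tested.

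**Figure D3:**
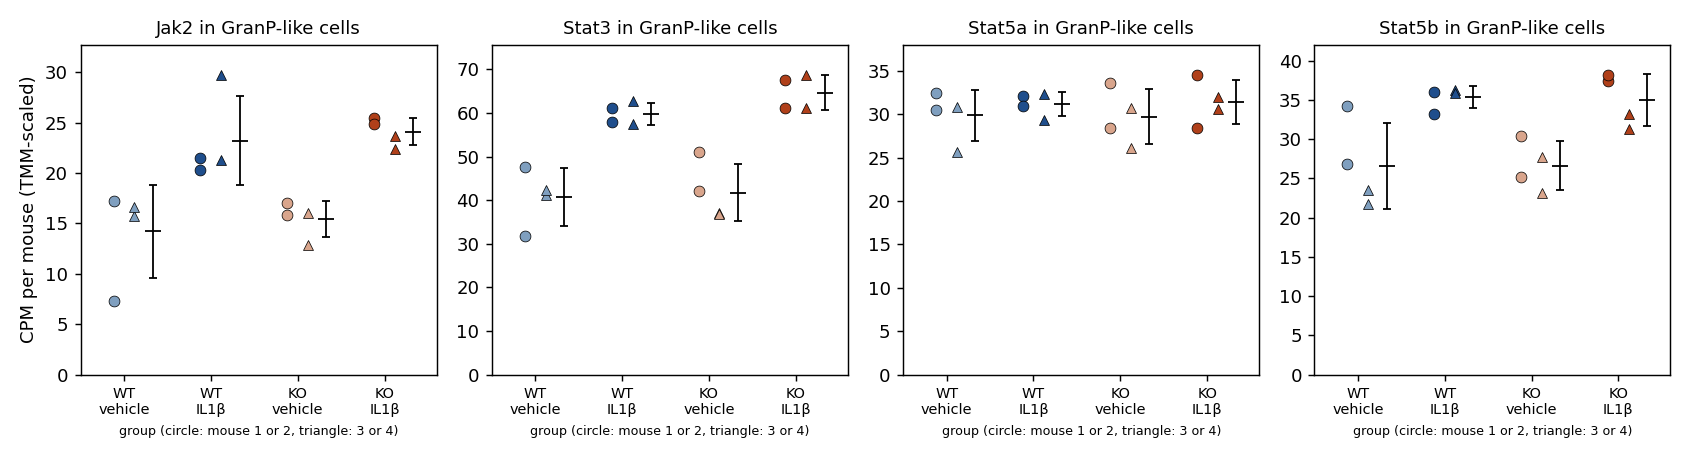
CPM per mouse of Jak2, Stat3, Stat5a and Stat5b in GranP-like cells, in the 4 groups on the x axis. Circles are mice 1 and 2, triangles mice 3 and 4, and the bars give the mean ± SD of 4 mice. Jak2, Stat3 and Stat5b are higher with IL1β in both genotypes, and Stat5a lies between 25.7 and 34.6 CPM in every mouse.

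Stat5b was called in 3 more types of Tet2-KO mice. In Mpo+Cd34+ cells it rose from 73.1, 48.7, 43.3 and 53.3 CPM to 75.0, 84.7, 77.2 and 98.2 CPM (log2 0.63, SE 0.20, adjusted p = 0.022 by edgeR). In MonoP-like cells it rose from 35.7, 34.9, 28.2 and 37.9 CPM to 46.9, 51.5, 46.6 and 45.2 CPM (0.49, SE 0.12, adjusted p = 0.0025). In CFU-E-like cells it rose from 45.1, 43.5, 39.7 and 42.2 CPM to 66.2, 61.2, 43.8 and 60.0 CPM (0.41, SE 0.12, adjusted p = 0.019). The groups overlapped in CFU-E-like cells alone, where 1 mouse with IL1β lay among those with vehicle. The MonoP-like call was lost without the library of KO IL1β mice 1 and 2 (0.43) and without that of KO vehicle mice 3 and 4 (0.43). The CFU-E-like call was lost without KO IL1β mouse 2 (0.36) or 4 (0.37), KO vehicle mouse 3 (0.37) or 4 (0.41), and the libraries of KO IL1β mice 1 and 2 (0.31) and KO vehicle mice 3 and 4 (0.34). The Mpo+Cd34+ call was lost without KO IL1β mouse 2 (0.63) or 4 (0.55), KO vehicle mouse 3 (0.50) or 4 (0.60), and the libraries of KO IL1β mice 1 and 2 (0.70), KO IL1β mice 3 and 4 (0.57) and KO vehicle mice 3 and 4 (0.36). In the other settings, calls were made in 10 of 13 for Mpo+Cd34+, in 13 of 14 for MonoP-like and in 12 of 14 for CFU-E-like cells. The CFU-E-like call was not made with pools as replicates or with another hashtag rule. WT mice had log2 differences of 0.16, 0.22 and 0.18 in these types, none of them called.

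Stat5a had 1 call, in MegP-like cells of Tet2-KO mice, from 66.4, 46.0, 55.5 and 57.0 CPM to 106, 98.0, 85.0 and 67.6 CPM (log2 0.65, SE 0.21, adjusted p = 0.046 by edgeR). This call was lost without any 1 of the 8 libraries (0.42 to 0.83) and without KO IL1β mouse 1, 2 or 3, KO vehicle mouse 2, 3 or 4, WT IL1β mouse 1 or 2 or WT vehicle mouse 1 (0.58 to 0.68), and was kept in 5 of 14 other settings. WT mice had 99.6, 75.8, 69.7 and 95.5 CPM with vehicle and 63.8, 72.6, 68.3 and 47.4 CPM with IL1β, a log2 difference of -0.43 that was not called. The differences had opposite signs in the genotypes, and the interaction was 1.07 (SE 0.31, unadjusted p = 0.0015, adjusted p = 0.9997 by edgeR).

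The inhibitor genes are classic STAT targets, and the letters TTCNNNGAA, which both STAT3 and STAT5 can bind, were searched in 300 bases around their starts (250 before and 50 after, RefSeq, build GRCm38.p6). The letters read the same on both strands. Of the 12 windows of the members, 2 held a match (16.7%), beside 8.3% of all 32851 windows in the table. Cish held 2 matches, as did or exceeded 0.457% of all windows, and Socs3 held 1. Socs2 has no entry. The windows of Cish, chr9:107296409-107296708 on the plus strand, and of Socs3, chr11:117969317-117969616 on the minus strand, are shown because these are the feedback genes with the largest differences among pairs past the filter on low counts. That of Pim1, chr17:29490535-29490834 on the plus strand, is shown because the gene had the most calls and its window holds no match. Capitals mark the matches.
Cish: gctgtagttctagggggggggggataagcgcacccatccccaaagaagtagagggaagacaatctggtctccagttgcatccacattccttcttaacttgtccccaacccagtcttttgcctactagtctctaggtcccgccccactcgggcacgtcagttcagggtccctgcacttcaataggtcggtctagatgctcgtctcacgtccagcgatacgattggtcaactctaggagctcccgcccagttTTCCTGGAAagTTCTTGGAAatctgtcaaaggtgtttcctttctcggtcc
Socs3: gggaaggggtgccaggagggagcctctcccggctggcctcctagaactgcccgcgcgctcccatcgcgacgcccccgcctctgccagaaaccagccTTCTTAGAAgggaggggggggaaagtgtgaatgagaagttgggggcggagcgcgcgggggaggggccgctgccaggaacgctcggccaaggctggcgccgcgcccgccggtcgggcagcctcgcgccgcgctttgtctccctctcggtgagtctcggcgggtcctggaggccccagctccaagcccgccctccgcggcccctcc
Pim1: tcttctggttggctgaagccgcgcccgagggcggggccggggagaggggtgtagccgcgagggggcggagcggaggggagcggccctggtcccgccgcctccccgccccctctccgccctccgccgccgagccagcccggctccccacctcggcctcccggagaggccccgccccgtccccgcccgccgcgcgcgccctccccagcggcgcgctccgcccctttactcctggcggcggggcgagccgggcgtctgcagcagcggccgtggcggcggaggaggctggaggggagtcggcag
The Cish matches, TTCCTGGAA and TTCTTGGAA, begin at bases 251 and 262 of the window, and the Socs3 match, TTCTTAGAA, at base 97. A match describes the letters and is no evidence of binding in these cells.

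Cish, which encodes the inhibitor CIS of erythropoietin and other STAT5-linked receptors, showed the largest called rises among the members. In both erythroid gates it passed the filter on low counts through mice with IL1β, so the filter favored a rise over a fall. In CFU-E-like cells of WT mice it was at 1.055, 1.29, 0.844 and 1.29 CPM with vehicle, and at 3.79, 4.67, 5.60 and 14.0 CPM with IL1β. In Tet2-KO mice it was at 3.95, 1.67, 1.61 and 1.78 CPM with vehicle and at 11.8, 2.37, 15.2 and 11.0 CPM with IL1β. WT groups did not overlap, whereas KO vehicle mouse 1 lay above KO IL1β mouse 2. These levels rest on 1 to 15 UMIs per vehicle mouse and 5 to 70 per IL1β mouse. The log2 fold change was 2.29 in WT (SE 0.60, adjusted p = 0.012 by edgeR) and 2.06 in Tet2-KO mice (SE 0.48, adjusted p = 0.0078).

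Between the vehicle and the IL1β library of mice 1 and 2, the log2 ratio of mean Cish CPM in CFU-E-like cells was 1.85 in WT and 1.34 in Tet2-KO mice, and between those of mice 3 and 4 it was 3.19 and 2.95. No library held mice of both treatments, so each ratio compares separate libraries. The WT call was lost without WT vehicle mouse 1 (2.23) and without the libraries of WT IL1β mice 3 and 4 (1.85), WT vehicle mice 1 and 2 (2.25) and WT vehicle mice 3 and 4 (2.33). The Tet2-KO call was lost without KO vehicle mouse 3 (1.85) or 4 (1.90) and without the libraries of KO vehicle mice 3 and 4 (1.42) and KO IL1β mice 3 and 4 (0.63), and by DESeq2. The interaction of genotype and IL1β was -0.24 (95% interval -1.75 to 1.28), a width that leaves room for a response of either genotype several times that of the other. Epor, the erythropoietin receptor gene, differed by 0.04 in WT and 0.00 in Tet2-KO CFU-E-like cells (log2, not called).

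In EryB-like cells, Cish was at 0.827, 0, 1.66 and 2.62 CPM in WT mice with vehicle and at 1.57, 11.0, 11.1 and 14.6 CPM with IL1β. Tet2-KO mice 1, 3 and 4 had 2.69, 2.00 and 2.41 CPM with vehicle, and mice 2, 3 and 4 had 1.07, 17.8 and 9.49 CPM with IL1β. In each genotype 1 IL1β mouse of the first library lay among the vehicle mice (WT mouse 1) or below them (KO mouse 2), and the others lay above them. The log2 fold change was 2.42 in WT (SE 0.78, adjusted p = 0.037 by edgeR) and 1.98 in Tet2-KO mice (SE 0.70, adjusted p = 0.078, not called). The WT call rests on 0 to 3 UMIs per vehicle mouse. It was lost without WT IL1β mouse 2 (2.37) or 4 (2.27), WT vehicle mouse 2 (2.34) or 3 (2.44), and the libraries of WT vehicle mice 1 and 2 (1.94) and 3 and 4 (3.43), by DESeq2 and with sex as a term. Without the filter on low counts the Tet2-KO difference was called (1.97, SE 0.60, adjusted p = 0.033 by edgeR). Between KO vehicle mouse 1 and KO IL1β mouse 2, from separate libraries, the log2 ratio was -1.33, and between the libraries of mice 3 and 4 it was 2.63. In WT EryB-like cells the handling-stress list summed to 265 to 468 CPM with vehicle and 506 to 1112 CPM with IL1β, without overlap and with 2 of 9 genes called higher, and its part in the Cish value was not tested.

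Outside the erythroid gates Cish did not pass the filter. In MegP-like cells, Tet2-KO mice had 7.11, 2.88, 4.62 and 0 CPM with vehicle and 9.11 to 21.3 CPM with IL1β, without overlap and on 0 to 15 UMIs per mouse. This difference was called without the filter (log2 2.01, SE 0.64, adjusted p = 0.036 by edgeR), and WT mice, at 2.73 to 15.9 CPM and 2.90 to 26.7 CPM, overlapped. In WT MPP-like cells vehicle mice 1, 3 and 4 had 5.82, 0 and 0 CPM and the 4 mice with IL1β had 10.7 to 39.5 CPM, on at most 1 UMI per mouse and on 2, too few to pass the filter.

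**Figure D4:**
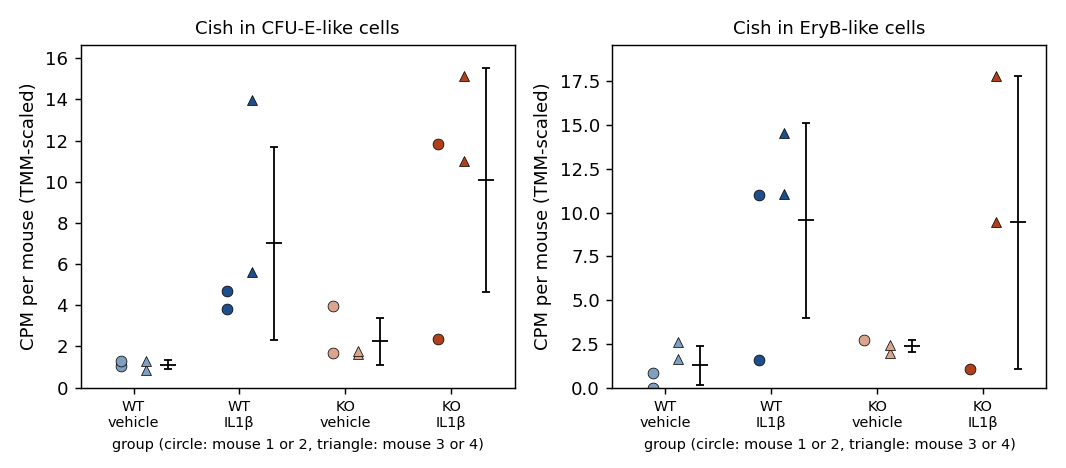
CPM per mouse of Cish in CFU-E-like (left) and EryB-like cells (right), in the 4 groups on the x axis. Circles are mice 1 and 2, triangles mice 3 and 4, and the bars give the mean ± SD. In CFU-E-like cells the 4 WT mice with vehicle sit between 0.844 and 1.29 CPM and the 4 with IL1β between 3.79 and 14.0 CPM.

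Socs3, which binds the gp130 and G-CSF receptors and JAK2 and limits STAT3 signaling, passed the count filter in Mpo+Cd34+ cells alone among the 9 types. There it was at 4.67, 0, 1.56 and 1.53 CPM in WT mice with vehicle and at 4.84, 62.0, 7.19 and 15.1 CPM with IL1β. Tet2-KO mice had 19.1, 6.08, 2.62 and 3.33 CPM with vehicle and 32.8, 11.6, 36.6 and 9.14 CPM with IL1β. The WT groups did not overlap, with WT IL1β mouse 2 far above the rest, and the Tet2-KO groups did. Log2 fold changes of 2.54 in WT (SE 1.05, adjusted p = 0.15 by edgeR) and 1.23 in Tet2-KO mice (SE 0.77, adjusted p = 0.30) were not called. The same WT IL1β mouse 2 had 20.8 CPM in MonoP-like and 54.5 CPM in Mono-like cells, where the other WT mice had at most 3.35 and 14.5 CPM.

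In the smaller MPP-like gate, Socs3 was 5.96 ± 5.83 CPM (n = 3) with vehicle and 42.9 ± 35.8 CPM (n = 4) with IL1β in WT mice, a log2 fold change of 2.68 (SE 0.98) with an adjusted p of 0.12 by edgeR. Tet2-KO mice had 9.44 ± 13.8 and 37.5 ± 25.9 CPM (n = 4), with a log2 fold change of 1.40 (SE 0.80) and an adjusted p of 0.29. In Baso-like cells the IL1β groups had 6 UMIs of Socs3 in WT and 9 in Tet2-KO mice (1.54 and 1.61 CPM of the summed depth), and the vehicle groups had 0 in sums of lower depth, which at 3 UMIs per group allows 1.48 and 1.53 CPM. The values with IL1β lay just above these bounds in both genotypes, in counts too low to pass the filter. Without the filter on low counts, the WT difference of Socs3 in Mpo+Cd34+ cells was called (2.52, SE 0.65, adjusted p = 0.0055 by edgeR).

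Socs1, which blocks JAK kinases directly and is known for limiting interferon signaling, passed the filter in GranP-like cells alone and was not called there. It was at 1.46 ± 1.23 CPM with vehicle and 1.69 ± 1.02 CPM with IL1β in WT mice (SD, n = 4), and at 1.94 ± 0.111 and 1.76 ± 0.283 CPM in Tet2-KO mice. The log2 differences were 0.06 (95% interval -0.81 to 0.94) and -0.18 (-0.88 to 0.53). In CFU-E-like cells, below the filter, Tet2-KO mice had 0.264, 0, 0 and 0.162 CPM with vehicle and 4.73, 0.987, 0.811 and 2.99 CPM with IL1β, on at most 1 UMI per vehicle mouse. Without the filter on low counts this difference was called (adjusted p = 0.0015 by edgeR), with a size that the near-absence of UMIs in vehicle mice makes dependent on the prior count.

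Socs2, a brake on growth hormone and STAT5 signaling, had the fewest UMIs and was not tested in any type. Beside the NK/T-like values given above, its highest means in WT mice with vehicle were in DC-like, MEP-like and HSC-like cells, at 11.8, 10.0 and 9.18 CPM on 3, 2 and 11 UMIs. In CFU-E-like cells, WT mice had 0.754, 2.57, 1.27 and 0.369 CPM with vehicle and 1.60, 1.04, 2.08 and 3.81 CPM with IL1β. These groups overlapped. Tet2-KO mice had 0.791, 0, 0.804 and 0.486 CPM with vehicle and 0, 0.395, 1.08 and 2.99 CPM with IL1β, which overlapped too.

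Pim1, a kinase without a regulatory domain that STAT3 and STAT5 induce and that favors survival and growth, was the member called in the largest number of types in WT mice. In GranP-like cells WT mice had 66.2, 36.6, 38.8 and 30.6 CPM with vehicle and 87.5, 123, 72.9 and 107 CPM with IL1β. In MonoP-like cells they had 107, 53.3, 55.2 and 41.3 CPM with vehicle and 158, 301, 145 and 188 CPM with IL1β. In CFU-E-like cells they had 32.1, 34.8, 36.7 and 27.9 CPM with vehicle and 67.9, 58.7, 58.9 and 136 CPM with IL1β. The groups did not overlap in any of these types. The log2 fold change was 1.15 in GranP-like (SE 0.39, adjusted p = 0.043 by edgeR), 1.57 in MonoP-like (SE 0.43, adjusted p = 0.023) and 1.19 in CFU-E-like cells (SE 0.29, adjusted p = 0.012).

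In Mpo+Cd34+ cells Pim1 was at 184, 119, 125 and 115 CPM in WT mice with vehicle and at 228, 720, 342 and 528 CPM with IL1β. Tet2-KO mice had 291, 274, 135 and 118 CPM with vehicle and 876, 390, 870 and 414 CPM with IL1β. Neither genotype overlapped, and both were called, with log2 fold changes of 1.65 (SE 0.47, adjusted p = 0.044 by edgeR) and 1.68 (SE 0.44, adjusted p = 0.021). In Tet2-KO MegP-like cells Pim1 rose from 126, 20.1, 37.0 and 57.0 CPM to 163, 144, 346 and 208 CPM (1.80, SE 0.45, adjusted p = 0.024), again without overlap. The handling-stress list in these Tet2-KO cells summed to 1314 to 4707 CPM with vehicle and 4125 to 5168 CPM with IL1β, with 2 of 9 genes called higher. KO vehicle mouse 1 was the highest vehicle mouse in that list as in Pim1, and the part of the list was not tested. WT MegP-like cells had 79.7, 45.5, 63.1 and 35.5 CPM with vehicle and 126, 252, 202 and 166 CPM with IL1β. Those WT groups did not overlap either, and their log2 fold change of 1.71 (SE 0.50) had an adjusted p of 0.064.

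Firmness differed between these calls. In WT mice the CFU-E-like call was kept in 22 of 24 left-out fits and was lost without the libraries of WT vehicle mice 1 and 2 (1.21) or 3 and 4 (1.16). The MonoP-like call was lost without WT IL1β mouse 2 (1.31), WT vehicle mouse 3 (1.47) or 4 (1.34), and the libraries of WT IL1β mice 1 and 2 (1.32), WT IL1β mice 3 and 4 (1.78) and WT vehicle mice 3 and 4 (1.05). The Mpo+Cd34+ call was lost without any 1 library other than those of KO vehicle mice (1.41 to 1.86) and without any 1 WT mouse other than WT IL1β mouse 1, and also without KO IL1β mouse 1 or KO vehicle mouse 2 (1.33 to 1.86). The GranP-like call was lost without the same 6 libraries (0.80 to 1.48), without any 1 WT mouse other than WT vehicle mouse 1, and without KO IL1β mouse 1, 2 or 3 or KO vehicle mouse 2 (0.98 to 1.27). These values all stayed above 0. In other settings the CFU-E-like call was made in all 14 and the MonoP-like call in 12 of 14, and not with pools as replicates or with gates set by a marker score. The Mpo+Cd34+ call was made in 7 of 13 and the GranP-like call in 9 of 14, and neither was made with no filter on low counts, with pools as replicates or with score-based or stricter gates.

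In Tet2-KO mice the Mpo+Cd34+ call was lost without KO IL1β mouse 1 (1.47) or 3 (1.47), KO vehicle mouse 3 (1.51) or 4 (1.45), and the libraries of KO IL1β mice 1 and 2 (1.70), KO IL1β mice 3 and 4 (1.65) and KO vehicle mice 3 and 4 (1.12). The MegP-like call was lost without KO IL1β mouse 3 (1.49), KO vehicle mouse 3 (1.62) or 4 (1.77), and the libraries of KO IL1β mice 3 and 4 (1.31) and KO vehicle mice 3 and 4 (1.48). In other settings these calls were made in 10 of 13 and 11 of 14, and neither with score-based gates or with only the 2 groups compared. The Mpo+Cd34+ call was also not made with pools as replicates.

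Pim1 in GranP-like cells of Tet2-KO mice had 99.5, 71.6, 33.3 and 32.9 CPM with vehicle and 78.5, 75.1, 82.9 and 49.7 CPM with IL1β. The library of KO vehicle mice 1 and 2 lay at the level of the mice with IL1β, and that of mice 3 and 4 below it. The log2 ratio of the IL1β to the vehicle library was -0.16 for mice 1 and 2 and 1.00 for mice 3 and 4, and the pooled difference of 0.24 (SE 0.35) was not called. CFU-E-like cells had -0.13 and 1.20, MonoP-like cells 0.39 and 1.22, and Mono-like cells 0.29 and 1.15. In WT mice the ratios in the same 4 types were above 0 in both sets of libraries, from 0.92 to 1.79. In the Tet2-KO GranP-like cells the handling-stress list summed to 1529, 1559, 798 and 612 CPM with vehicle and 1313, 2247, 471 and 601 CPM with IL1β. It was higher in mice 1 and 2 of both treatments, and its part in the Pim1 values was not tested.

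Interaction tests for Pim1 gave -0.91 in GranP-like (95% interval -1.94 to 0.11), -0.88 in MonoP-like (-2.02 to 0.26) and -0.45 in CFU-E-like cells (-1.24 to 0.35), none called by edgeR (adjusted p = 0.93 or higher). Pim1 was not called in Mono-like, Neut-like, Baso-like or EryB-like cells of either genotype, where the log2 fold changes were 0.855 to 1.21 in WT and -0.095 to 1.17 in Tet2-KO mice. Without the filter on low counts, edgeR called Pim1 in EryB-like cells of both genotypes (1.13 and 1.15) and in WT Neut-like cells (1.03). In Tet2-KO Neut-like cells, the 1 negative value, vehicle mice 1 to 3 had 83.1, 117 and 23.9 CPM and mice with IL1β 71.5, 68.0, 71.0 and 81.5 CPM.

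**Figure D5:**
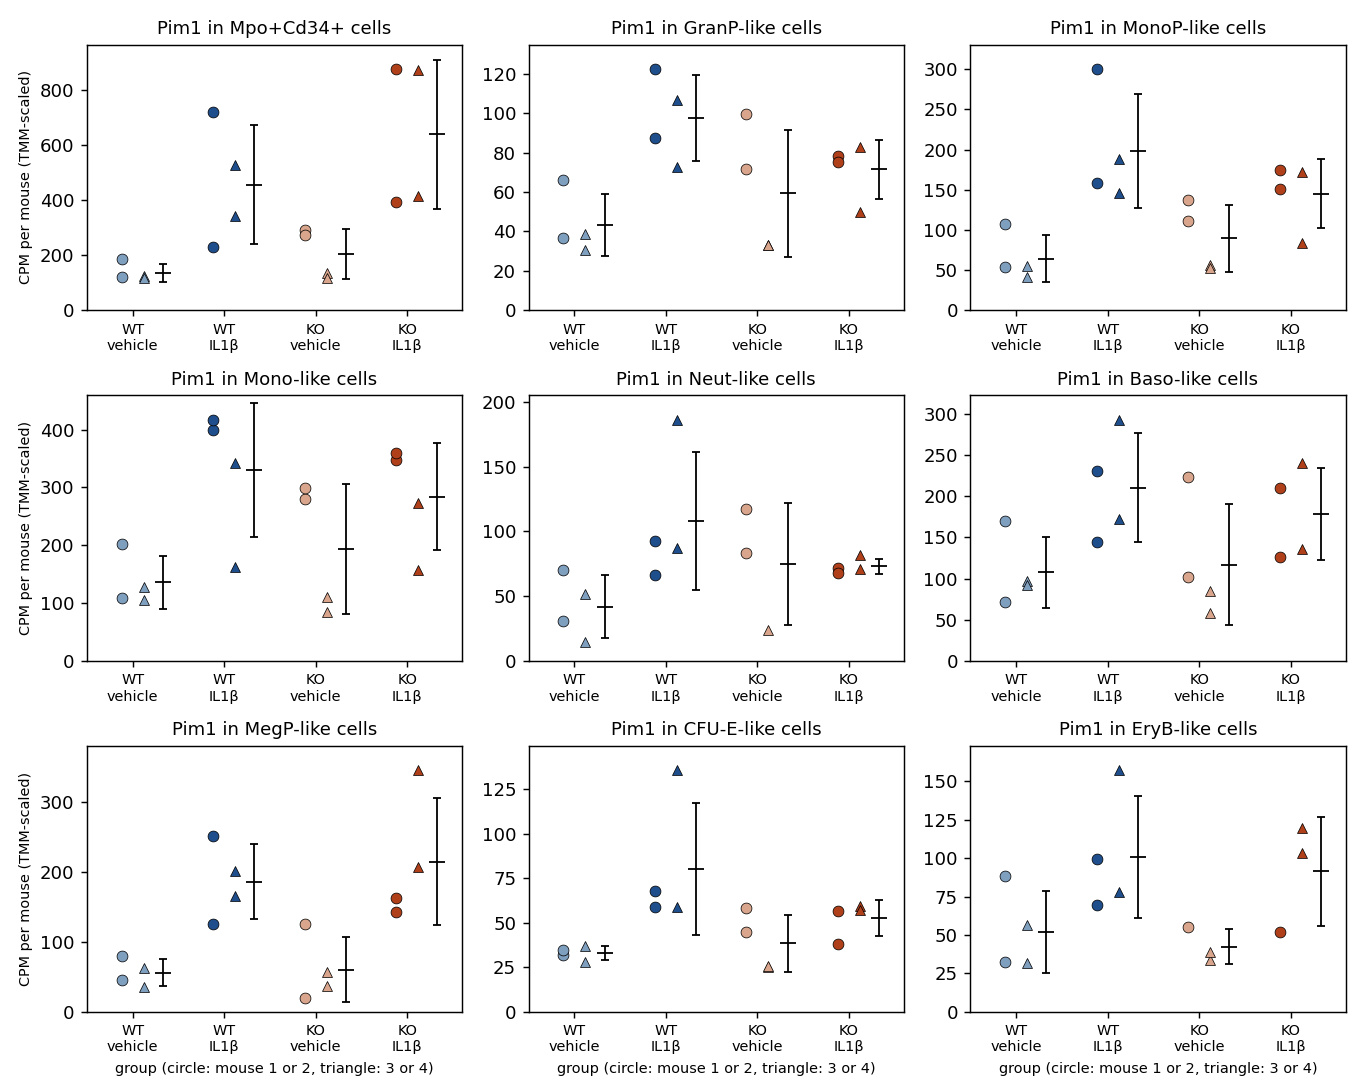
CPM per mouse of Pim1 in the 9 tested cell types, in the 4 groups on each x axis. Circles are mice 1 and 2, triangles mice 3 and 4, and the bars give the mean ± SD. WT mice with IL1β lie above WT mice with vehicle in Mpo+Cd34+, GranP-like, MonoP-like, MegP-like and CFU-E-like cells, and KO vehicle mice 1 and 2 lie above the other KO vehicle mice in Mpo+Cd34+, GranP-like, MonoP-like, Mono-like, Neut-like, Baso-like and CFU-E-like cells.

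Among the smaller gates, CLP-like cells of WT mice had 226 ± 96.9 CPM of Pim1 with vehicle (SD, n = 4) and 1190 ± 749 CPM with IL1β (n = 3), a log2 fold change of 2.25 (SE 0.49, adjusted p = 0.034 by edgeR). MEP-like cells had 139 ± 55.9 CPM with vehicle and 445 ± 68.8 CPM with IL1β (n = 3 each), a log2 fold change of 1.83 (SE 0.37, adjusted p = 0.0056). Neither pair of groups overlapped. The Tet2-KO groups did not overlap either: CLP-like cells of 3 mice each had 212 to 360.1 CPM with vehicle and 851 to 1543 CPM with IL1β (log2 2.02, SE 0.52, adjusted p = 0.0999), and MEP-like cells 67.1 to 251 CPM and 301 to 657 CPM (1.21, SE 0.37, adjusted p = 0.098), neither called by edgeR. In the WT CLP-like cells the hemoglobin genes summed to 54.0 to 169 CPM with vehicle and 238 to 348 CPM with IL1β, with the 1 tested gene called higher, and the handling-stress list to 999 to 2929 CPM and 3262 to 3535 CPM. In the WT MEP-like cells the neutrophil genes summed to 288 to 701 CPM and 1220 to 3934 CPM. None of these sums overlapped, and their part was not tested. MPP-like cells missed the threshold in both genotypes, with 2.14 (SE 0.53, adjusted p = 0.051) in WT and 1.59 (SE 0.47, adjusted p = 0.061) in Tet2-KO mice, without overlap. HSC-like cells had 237 ± 33.1 and 538 ± 217 CPM in WT mice, where the difference of 1.17 (SE 0.70, adjusted p = 0.55) was not called and the groups overlapped. The handling-stress list in WT MPP-like cells, where Socs3 values are also given above, summed to 1316 to 2888 CPM with vehicle and 3092 to 4159 CPM with IL1β, and in WT HSC-like cells to 1137 to 2822 CPM and 3688 to 4794 CPM, without overlap and with no gene called. Its part was not tested.

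Bcl3, a partner of NF-κB p50 and p52 dimers that STAT3 can induce, passed the filter in GranP-like, MonoP-like and Mono-like cells and was called in none. GranP-like cells had 3.31, 2.44, 3.57 and 3.56 CPM in WT mice with vehicle and 4.34, 4.93, 4.29 and 4.49 CPM with IL1β. These groups did not overlap, and the log2 difference was 0.39 (SE 0.29, adjusted p = 0.34 by edgeR). In Tet2-KO mice the levels were 6.21, 7.32, 3.31 and 6.31 CPM with vehicle and 4.07, 5.31, 7.01 and 3.77 CPM with IL1β, which overlapped (-0.17). Mono-like cells held the highest Bcl3 among the tested types, with 17.2 ± 11.7 and 30.9 ± 6.84 CPM in WT mice and 22.3 ± 4.07 and 23.9 ± 2.48 CPM in Tet2-KO mice (SD, n = 4). In MegP-like cells, below the filter, all 4 KO vehicle mice had 0 UMIs and the 4 KO IL1β mice had 2 to 6, a difference that was called without the filter (adjusted p = 0.0035 by edgeR). With 0 UMIs in the vehicle mice, its size depends on the prior count. WT mice, at 0 to 3.985 CPM with vehicle and 0 to 19.1 CPM with IL1β, overlapped.

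Genotype by itself moved no member past the threshold. Of 51 tests, edgeR called 0 between Tet2-KO and WT mice with vehicle, beside 0.0628% of all gene tests, and 0 with IL1β, beside 0.0901%. At an unadjusted p under 0.05 there were 4 and 2, where 4.06% and 6.35% of all gene tests passed. The interaction of genotype and IL1β was called for 0 of 51 member tests, beside 0.00136% of all gene tests, and 4 had an unadjusted p under 0.05, where 4.07% of all gene tests did. These 4 were Stat5a in MegP-like (1.07), Jak2 in MegP-like (-0.97), Stat3 in MonoP-like (-0.64) and Jak2 in CFU-E-like cells (0.41). A call in 1 genotype and not in the other is therefore no sign that the genotypes responded differently.

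The rest of the pathway was read from 61 other genes, 60 of which are in the files and 55 of which passed the filter in at least 1 type. For the kinase genes Jak1, Jak3 and Tyk2, edgeR and DESeq2 called 0 of 21 tests over genes and types in each genotype, beside 13.2% of all gene tests in WT and 15.9% in Tet2-KO mice by edgeR, and 2 tests in each genotype had an unadjusted p under 0.05 by edgeR. For the other 4 STAT genes both tools called 0 of 28 tests in WT mice, where 2 had an unadjusted p under 0.05 by edgeR. In Tet2-KO mice Stat2 rose in GranP-like and MonoP-like cells and Stat4 in GranP-like cells, 10.7% of the 28 tests of these genes beside 15.9% of all gene tests. Of 15 inhibitor genes, Cbl, Pias1, Pias2, Ptprc and Socs7 rose in at least 1 WT type, and Cbl, Pias2, Ptprc, Socs4 and Socs7 in at least 1 Tet2-KO type, with none lower. Over genes and types, 7.5% of inhibitor tests in WT and 10.8% in Tet2-KO mice were called, all of them higher, beside the backgrounds of 13.2% and 15.9% in either direction and of 5.34% and 6.97% higher.

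Of 15 target genes, 13 passed the filter, of which 6 rose and 1 fell in WT mice and 5 rose and 2 fell in Tet2-KO mice, with 17.2% and 20.2% of the tests called beside the same 13.2% and 15.9%. The largest rise was that of Junb, an AP-1 subunit, in MegP-like cells, from 73.8 ± 35.4 to 507 ± 197 CPM (SD, n = 4) in WT mice (log2 2.79, SE 0.64, adjusted p = 0.025 by edgeR) and by 2.74 (SE 0.58, adjusted p = 0.012) in Tet2-KO mice. Junb is also in the handling-stress list, whose sum in WT MegP-like cells was 835 to 2072 CPM with vehicle and 2091 to 4302 CPM with IL1β, and its part was not tested. Tfrc, the transferrin receptor gene, rose in WT Neut-like cells from 14.2 ± 3.59 to 59.9 ± 8.998 CPM (log2 2.06, SE 0.36, adjusted p = 0.00068), without overlap. The 7 neutrophil genes in these WT Neut-like cells summed to 428184 to 533089 CPM with vehicle and 124573 to 394875 CPM with IL1β, also without overlap and with 2 of 7 called lower, a shift of the main RNA of the gate whose part in the other values of Neut-like cells was not tested. Irf1, an interferon-response transcription factor gene, rose in CFU-E-like cells from 3.97 ± 2.14 to 14.9 ± 2.52 CPM in WT (log2 1.94) and from 5.28 ± 1.30 to 17.5 ± 12.3 CPM in Tet2-KO mice (log2 1.775). In this type Cish rose as well. The mice with IL1β lay above those with vehicle in WT mice and overlapped with them in Tet2-KO mice. Of the cyclin genes, Ccnd2 was called in both directions. In WT mice it rose in CFU-E-like (0.63 on the log2 scale) and EryB-like cells (0.80), values chosen after they were seen, and in Tet2-KO mice it fell by 1.65 in Neut-like and by 0.42 in GranP-like cells. Ccnd3 fell by 0.59 in WT Neut-like cells, and in Tet2-KO mice by 0.42 in CFU-E-like, by 0.39 in GranP-like and by 0.32 in MonoP-like cells.

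Of 24 genes of receptors for colony-stimulating factors and other cytokines, 20 passed the filter, 5 rose and 2 fell in WT mice and 10 rose and 2 fell in Tet2-KO mice. Over genes and types 9.32% and 16.9% of these tests were called, beside 13.2% and 15.9% of all gene tests. Il6ra, whose ligand acts through STAT3, rose in MonoP-like cells of both genotypes, by 0.55 (SE 0.14, adjusted p = 0.0034 by edgeR) and 0.56 (SE 0.12, adjusted p = 0.00098). Crlf2, the TSLP receptor gene, fell by 0.90 in WT and by 0.74 in Tet2-KO Mono-like cells. Il7r was called lower in WT Baso-like cells (log2 fold change -1.54). Its values there were 0 to 32.2 CPM with vehicle and 5.16 to 18.8 CPM with IL1β, which overlapped. Lifr, the LIF receptor gene, rose by 1.41 in Tet2-KO Mono-like cells. The 4 hemoglobin genes in Mono-like cells summed to 88.8 to 134 CPM with vehicle and 62.5 to 70.4 CPM with IL1β in WT mice, with 1 called lower, and to 78.8 to 172 CPM and 15.5 to 46.0 CPM in Tet2-KO mice, with 3 called lower, without overlap in either genotype, and their part was not tested.

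Genes whose level varied most like a member across 13 cell types of WT mice with vehicle, by Pearson's r of log2(CPM + 1) over 11738 genes, were Ccnl1 and Nr2c2 for Pim1 (0.96 each), Ptk2b (0.96) and Syk (0.94) for Stat3, and Kif20b (0.90) and Med14 (0.87) for Jak2. For the STAT5 genes they were Sqle (0.91) and Cers2 (0.89) for Stat5a, and Unk (0.92) and Mtmr9 (0.91) for Stat5b. For the genes with few UMIs they were Phldb1 (0.95) and Zpbp (0.93) for Cish, Calcrl (0.94) and Slc25a36 (0.93) for Socs3, Agap2 (0.91) and Gstt3 (0.85) for Socs1, N4bp2l2 (0.88) and Arid2 (0.87) for Socs2, and Neurl1b and Ppfibp2 (0.94 each) for Bcl3. These values are a description over 13 points from the same libraries, with the best of many genes taken, and weak counts make the last set least firm.

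Genes of other cells were followed beside these results. The 4 hemoglobin genes in GranP-like cells, where Jak2, Stat3 and Stat5b rose, summed to 53.3 to 72.1 CPM with vehicle and 32.6 to 42.2 CPM with IL1β in WT mice, and to 45.1 to 100 CPM and 11.5 to 38.3 CPM in Tet2-KO mice, and all 4 were called lower in Tet2-KO mice. The 7 neutrophil genes in the same cells summed to 11480 to 15730 CPM with vehicle and 8157 to 8839 CPM with IL1β in WT mice, without overlap, and to 11114 to 16215 CPM and 9671 to 14002 CPM in Tet2-KO mice, with 1 called higher and 1 lower in each genotype. Elane is 1 of these 7 genes and also a gate marker of GranP-like cells, so here the sum holds RNA of the gated cells themselves. The hemoglobin genes in MonoP-like cells, where Stat3, Stat5b and Pim1 were called, summed to 40.0 to 83.0 CPM and 34.0 to 54.5 CPM in WT mice, with 2 of 4 called lower, and to 41.6 to 104 CPM and 11.0 to 34.2 CPM in Tet2-KO mice, with all 4 called lower. In Tet2-KO Baso-like cells, where Jak2 rose, they summed to 67.5 to 201 CPM and 28.6 to 64.7 CPM, with 3 of 3 tested genes called lower. In Mpo+Cd34+ cells, where Pim1, Stat3 and Stat5b were called, they summed to 82.5 to 417 CPM and 50.3 to 80.7 CPM in WT mice, without overlap and with none of 3 tested genes called, and to 48.7 to 140 CPM and 28.1 to 118 CPM in Tet2-KO mice, with 1 of 3 called lower. The 7 neutrophil genes in CFU-E-like cells, where Cish rose, summed to 273 to 3070 CPM and 911 to 1407 CPM in WT mice, and to 147 to 1422 CPM and 227 to 279 CPM in Tet2-KO mice, with none called. All genes of the hemoglobin and neutrophil lists had UMIs in these gates, and the part of the lists in the results was not tested. The handling-stress list in CFU-E-like cells summed to 340 to 643 CPM with vehicle and 551 to 1856 CPM with IL1β in WT mice and to 474 to 1282 CPM and 604 to 1739 CPM in Tet2-KO mice, with 1 of 10 genes called higher in each genotype, and its part was not tested either.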

How the data were processed

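Droplet single-cell RNA libraries of lineage-depleted bone marrow were analysed from 8 pools of 2 mice each. The deposited counts are UMIs per gene and cell barcode, made by the authors with Cell Ranger 3.1.0 on the mouse build GRCm38 (mm10), beside counts of 2 hashtags per library. Seurat 3.2.3 is also named in the submitters' processing notes. The members and all gene lists were chosen with earlier results of these data known.

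Cells with at least 750 genes and at most 10% mitochondrial UMIs were kept. Mice were assigned with HTODemux (Seurat 5.3.0), and cells with both hashtags, taken as doublets (4.15%), or with no call (34.9%) did not enter the main fit. With pools as replicates, cells with no call entered too, so that setting changed the cells as well as the replicates. Cell types were gated on marker UMIs, at least 1 UMI for most markers and 3, 5 or 10 for abundant ones, thresholds that were set from the pooled counts of the markers, and a cell in more than 1 gate was left out. UMIs were summed per mouse and type where a mouse had at least 20 cells and each group at least 3 mice. Each type was fitted over all genes and all 4 groups with edgeR 4.0.16 (filterByExpr, TMM, quasi-likelihood F-test) in R 4.3.3 with limma 3.58.1, with Benjamini-Hochberg adjustment over the genes of that type and calls at 0.05. The steps were tested on data simulated for CFU-E-like, GranP-like and Mpo+Cd34+ cells, with no effect of a shared library. That test cannot show how the steps behave where 2 mice share a library. Each pair of mice shared a library, and the main fit had no term for the library, so it took the 4 mice of a group as independent. Differences between libraries can therefore make its p-values too small. The alternatives were DESeq2 1.42.0, RLE scaling, no filter on low counts, a replicate block, only the groups compared, pools as replicates, another hashtag rule, other gates, cells of the top 5% of UMIs left out, at least 50 cells, adjustment over all types and each mouse left out. Chosen after seeing the data were at least 10 cells, sex as a term and each library left out. Sex was read per mouse from UMIs of Xist against those of Ddx3y and Eif2s3y. By this rule 1 WT vehicle mouse and 2 mice in each other group were female.

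Every member was named in each type it passed, and of the other pathway genes up to 3 called higher and 3 called lower per genotype, by size. Epor and Il6ra were named after their values were seen. Promoter windows are those of RefSeq on GRCm38.p6, which hold 9 of the 10 members. Tables were made with Python 3.11.15, numpy 2.4.6, scipy 1.17.1 and pandas 2.3.3. The range of UMIs per library gives counting error only, and the low counts of Socs1, Socs2, Socs3, Cish and Bcl3 set the precision for these genes.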

Additional observations from a re-analysis of the deposited data

Results flagged for a closer look

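In groups of 4 mice, 1 mouse lay far from the other 3 in 9 of the 66 groups looked at, by Dixon's test at its 95% critical value, which flags about 5% of groups by chance. All are values of genes with a call in that type.

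In GranP-like cells these were Jak2 in WT vehicle mouse 2 at 7.33 CPM (others 15.7 to 17.2) and in WT IL1β mouse 4 at 29.8 CPM (20.3 to 21.45), and Stat5b in WT IL1β mouse 1 at 33.3 CPM (35.9 to 36.2). In CFU-E-like cells they were Cish in KO vehicle mouse 1 at 3.95 CPM (1.61 to 1.78), Pim1 in WT IL1β mouse 4 at 135.8 CPM (58.7 to 67.9) and in KO IL1β mouse 1 at 37.85 CPM (56.45 to 59.2), and Stat5b in WT IL1β mouse 4 at 38.1 CPM (53.3 to 55.1). In Mpo+Cd34+ cells they were Pim1 in WT vehicle mouse 1 at 183.6 CPM (114.8 to 124.9) and Stat5b in WT IL1β mouse 4 at 85.5 CPM (56.5 to 57.55). WT IL1β mouse 4 is named in 4 of the 9 values. It had 84 CFU-E-like cells, against 230 to 667 in the other WT mice with IL1β.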

How the results depend on the processing

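Of the member calls, 10 in WT and 12 in Tet2-KO mice, DESeq2 gave 11 and 7, no filter on low counts 11 and 16, at least 50 cells 8 and 7 in 6 types, the score gate 8 and 8, and sex as a term 8 and 12. Pools as replicates did not give the WT calls of Jak2, Stat5b and Pim1 in GranP-like or of Pim1 in MonoP-like and Mpo+Cd34+ cells. In Tet2-KO mice they did not give those of Jak2 in Baso-like, Pim1 in Mpo+Cd34+, Stat5a in MegP-like and Stat5b in CFU-E-like cells. With 1 mouse left out the counts ran from 6 to 12 in WT and from 5 to 17 in Tet2-KO mice. The low ends came without WT IL1β mouse 2 or WT vehicle mouse 3 or 4 (6 each), and without KO vehicle mouse 3 or 4 (5 each). KO vehicle mouse 1, left out, gave the 17. With 1 library left out, WT calls fell to 5 without WT vehicle mice 1 and 2 and to 2 without WT vehicle mice 3 and 4. Tet2-KO calls were 7 without KO IL1β mice 1 and 2, 5 without KO IL1β mice 3 and 4, 2 without KO vehicle mice 3 and 4, and 18 without KO vehicle mice 1 and 2. Leaving out mice also leaves fewer samples. Between the genotypes with vehicle 1 member was called without KO vehicle mice 3 and 4 and 0 otherwise, and the interaction was called in none of these fits. Over 819 refitted values of single calls, 656 were called too, 163 were not, and 0 changed sign.

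The replicate block gave 11 calls in WT and 13 in Tet2-KO mice. Over all genes compared in 4 types, same-numbered mice of different groups had a median correlation of -0.075 to 0.048. Single correlations ran from -0.470 to 0.388. Mice of the same set of libraries had medians of -0.067 to 0.033, and mice of the other set -0.031 to 0.053. A correlation over all compared genes cannot decide whether a smaller set of genes ties the libraries across groups. The handling-stress list did follow the set of libraries in every group, in GranP-like cells and the other types named with it above.

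The low counts of the SOCS genes and Bcl3 limit which types were tested, 4 mice per group share 2 libraries, and gates built from markers, in place of the study's own cell types, set which cells were summed.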
